A study of Sus scrofa with 75 samples.

Results

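Erythroid genes are the genes that a maturing red blood cell uses to make hemoglobin, to make heme and to build its membrane, together with the transcription factors that switch them on. In an adult pig red cells are formed in the bone marrow, lose their nucleus, and enter the blood as reticulocytes that still carry RNA for a short time. An organ taken with its blood therefore holds some of this RNA, and the spleen, whose red pulp filters and stores red cells, is the organ most closely tied to them. Levels of 8 erythroid genes were followed in pig heart, kidney, liver, lung and spleen. The genes were picked by symbol in the deposited assembled annotation, and all 8 were found among 35798 genes. They are HBM (hemoglobin subunit mu, a globin of the alpha cluster), ALAS2 (the erythroid enzyme of the first step of heme synthesis), AHSP (a chaperone of free alpha globin), GYPC (glycophorin C, a membrane sialoglycoprotein), SLC4A1 (band 3, the anion exchanger of the red cell membrane), EPB42 (protein 4.2, which binds band 3 to the membrane skeleton), and KLF1 and GATA1 (erythroid transcription factors).

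All animals were adult males of 12 months, and the labels give no treatment and no altered gene. They carry the code BS or DSE, neither of which is spelled out in the labels. Short-read RNA sequencing after depletion of ribosomal RNA covered 40 libraries, 4 BS and 4 DSE animals in each of 5 organs, and PacBio long-read sequencing covered 10 libraries, 1 for each pig group and organ. The libraries are named here by code, number and organ (BS1 spleen), and the same code and number in several organs is read as 1 animal, which the labels do not state. Samples labelled DT were not analysed here. Levels are in TPM (a transcript unit scaled to gene length and then to a common library total), and the short-read depth is unknown. The long-read libraries held 119623 to 456783 full-length reads. These are bulk organ samples, so fewer cells of a type and less RNA per cell cannot be told apart.

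The organ labels held up against defining markers. Summed heart muscle markers reached 36931 to 53548 TPM in heart and at most 226 TPM elsewhere, kidney tubule markers 5322 to 9623 TPM in kidney and at most 5.94 TPM elsewhere, hepatocyte markers 80591 to 124510 TPM in liver and at most 1205 TPM elsewhere, and lung epithelium markers 37463 to 82473 TPM in lung and at most 125 TPM elsewhere. B cell markers were at 287 to 769 TPM in spleen and at most 86.9 TPM elsewhere. One library stood apart for the erythroid genes, BS1 spleen, which held the highest spleen level of 7 of the 8 genes. Some of the results that rest on it are also given without it.

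The genes lie on 6 chromosomes of the build susScr11, in coordinates of the deposited annotation. HBM (ENSSSCG00000007977) lies at chr3:41489313-41490264 on the minus strand, next to the unnamed gene ENSSSCG00000007978 (chr3:41482363-41487535). All of HBM falls inside NPRL3, which runs on the other strand, and 201 of its 850 exon positions are also in an NPRL3 exon. AHSP (ENSSSCG00000037878) is at chr3:17059333-17065749, ALAS2 (ENSSSCG00000012347) at chrX:47871520-47896000 and GATA1 (ENSSSCG00000027237) at chrX:42898442-42905976. GYPC (ENSSSCG00000040701) is at chr15:25576567-25579306, SLC4A1 (ENSSSCG00000017358) at chr12:18957807-18974210, EPB42 (ENSSSCG00000004714) at chr1:128231947-128253039 and KLF1 (ENSSSCG00000013730) at chr2:66144777-66148517. The annotated GYPC spans 2740 bases, against 30571 bases in RefSeq (Sscrofa11.1), so its level counts only part of the RefSeq gene. AHSP spans 6417 bases, against 1004 bases in RefSeq, and EPB42 shares 7 positions with CCNDBP1 on the other strand. Whether the counting used strand is not given in the sources used here, so reads of HBM and NPRL3 in the shared exon cannot be told apart. NPRL3 stood at 4.61 to 25.2 TPM over the 40 libraries, with a median of 10.9 TPM.

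The globin HBM had its highest levels in spleen and lung, with a wide spread between animals. In spleen it stood at 1535, 226, 23.9 and 707 TPM in BS1 to BS4 and at 9.35, 28.0, 62.4 and 8.03 TPM in DSE1 to DSE4. The highest spleen library was 191 times the lowest, and BS3 fell below 2 of the DSE animals. In lung HBM stood at 122, 64.5, 120 and 209 TPM in BS and at 9.33, 10.2, 22.0 and 8.95 TPM in DSE. Every BS lung lay above every DSE lung, as for 14.2% of all genes tested in lung. Heart held 41.1, 28.5, 6.54 and 16.0 TPM in BS and 10.7, 6.79, 3.50 and 4.35 TPM in DSE. Liver held 55.0, 12.0, 1.61 and 31.5 TPM in BS and 2.44, 5.14, 3.78 and 1.63 TPM in DSE, so that its single lowest library was BS3. Kidney held 22.8, 6.62, 1.15 and 11.8 TPM in BS and 0.54, 0.79, 2.25 and 0.46 TPM in DSE, the lowest organ median of HBM.

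**Figure D1:**
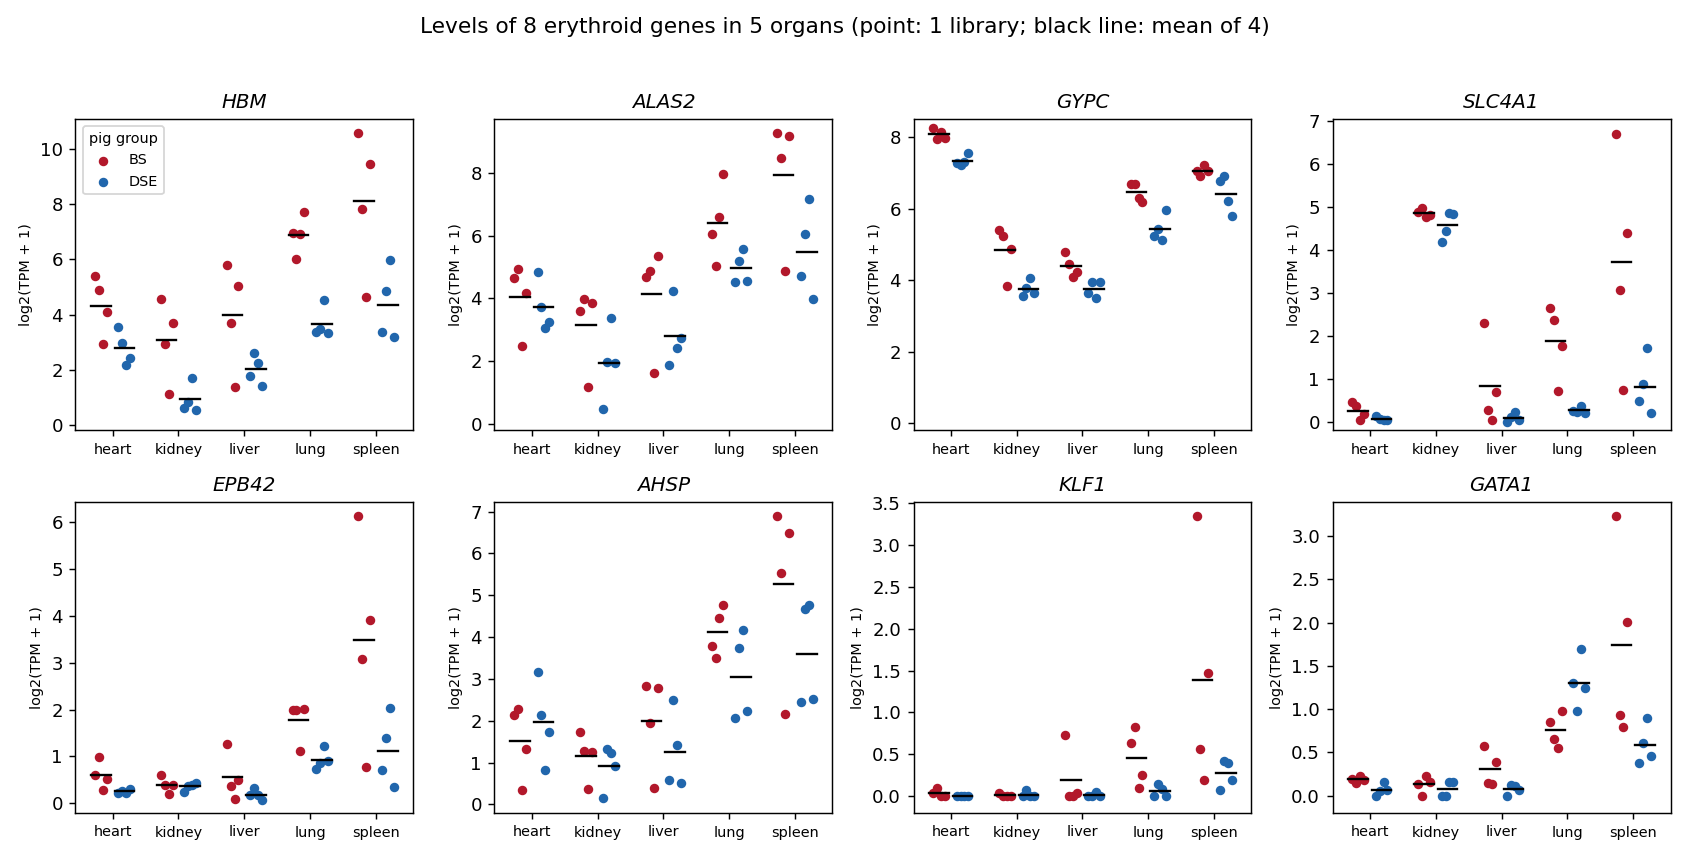
Level of each erythroid gene as log2(TPM + 1) (vertical axis, scaled per gene) in 5 organs (horizontal axis), with BS libraries in red, DSE libraries in blue and the mean of 4 libraries as a black line. HBM, ALAS2, AHSP and EPB42 have their highest means in spleen with a wide spread of BS libraries, GYPC is highest in heart, SLC4A1 has a tight cluster of 17.2 to 30.2 TPM in all 8 kidney libraries, and KLF1 stays near 0 outside spleen and lung but for BS1 liver (0.66 TPM).

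ALAS2 followed the same order of organs. Spleen held 616, 357, 28.1 and 579 TPM in BS and 25.1, 65.6, 142 and 14.8 TPM in DSE, and lung 65.4, 31.9, 95.3 and 248 TPM in BS and 22.2, 35.8, 46.4 and 22.4 TPM in DSE. The groups overlapped in both organs, through BS3 in spleen and BS2 in lung. Medians over the 8 libraries were 14.6 TPM in heart, 11.7 TPM in liver and 6.10 TPM in kidney, where the lowest library, DSE1, was at 0.38 TPM. AHSP was lower throughout, with 118, 45.0, 3.51 and 89.1 TPM in BS spleen and 4.45, 24.3, 26.2 and 4.77 TPM in DSE spleen. Its lung libraries ran from 3.19 to 26.4 TPM, and its medians in heart, liver and kidney were 2.86, 2.26 and 1.36 TPM. The lowest AHSP level in spleen was that of BS3, the animal of the lowest BS levels of HBM and ALAS2 in that organ.

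The 3 membrane genes did not share a pattern. GYPC had its highest level in heart, with 305, 247, 280 and 252 TPM in BS and 155, 148, 157 and 188 TPM in DSE, and the 2 groups did not overlap there, as for 23.1% of all genes tested in heart. Spleen followed with 53.9 to 149 TPM and lung with 34.0 to 103 TPM, while kidney and liver held 10.7 to 40.9 and 10.3 to 26.6 TPM. The spread of GYPC between animals was narrow, with the highest library 2.06 to 3.82 times the lowest in each organ. SLC4A1 was highest in kidney, at 28.5, 30.2, 26.2 and 26.9 TPM in BS and 17.2, 20.6, 28.0 and 27.3 TPM in DSE. In spleen it ran from 0.15 TPM in DSE4 to 103 TPM in BS1, a 712-fold range, the widest of any member in spleen. EPB42 stood in BS spleen at 68.5, 7.47, 0.70 and 14.1 TPM and in DSE spleen at 0.65, 1.62, 3.06 and 0.27 TPM. Its lung libraries ran from 0.65 to 3.05 TPM, and 1 of the 24 libraries of heart, kidney and liver reached 1 TPM.

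The 2 transcription factors were low everywhere. KLF1 stood in spleen at 9.19, 0.47, 0.14 and 1.77 TPM in BS and at 0.055, 0.34, 0.32 and 0.15 TPM in DSE, so that BS1 and BS4 were the 2 libraries above 1 TPM. It stayed under 1 TPM in every library of the other organs and was listed at 0 in 6 of 8 heart, 6 of 8 kidney, 5 of 8 liver and 2 of 8 lung libraries. GATA1 stood in spleen at 8.40, 0.90, 0.73 and 3.0 TPM in BS and at 0.30, 0.53, 0.87 and 0.37 TPM in DSE. In lung the order of the groups was the opposite, with 0.81, 0.57, 0.47 and 0.96 TPM in BS and 1.46, 0.97, 2.22 and 1.37 TPM in DSE, and the groups did not overlap, as for 25.7% of all genes in that direction. Heart, kidney and liver held at most 0.49 TPM.

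Organs were compared in 1 model over all genes that averaged 1 TPM or more in some organ (limma on log2(TPM + 1), Benjamini-Hochberg adjustment within each pair of organs). Of 80 tests of a member in a pair of organs, 45 passed an adjusted p of 0.05, where 73.5% of all tests over genes and pairs passed. Without the BS1 spleen library 46 passed, among 73.2% of all tests, and KLF1 then fell under the filter and was not tested. All 8 members were higher in spleen than in liver, against 66.7% of all genes tested. In spleen against heart 7 were higher, all but GYPC, against 61.8% of genes, and GYPC was lower, against 15.3% of genes. In spleen against kidney 7 were higher, against 39.2% of genes, and SLC4A1 was lower, against 31.9% of genes. KLF1 averaged 1 TPM or more in spleen alone, so a higher level there was built in by the filter. EPB42 and GATA1 did so only in spleen and lung, so the same holds for them in these organs against heart, kidney and liver. The counts therefore describe the tests made. The median member difference was 2.29 (log2) in spleen against liver, 1.99 against heart and 2.18 against kidney, beside medians of 0.86, 0.74 and 0.08 over all genes. These shifts of all genes depend on the scaling: with libraries rescaled by the median of their gene ratios (median-gene scaling), the background fell to 36.1% in spleen against liver and 34.0% in spleen against heart, and the members kept 8 and 6 higher calls, HBM in spleen against heart being lost.

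Between spleen and lung 1 member passed. GYPC was higher in spleen, by 0.78 (SE 0.27, adjusted p = 0.0133), where 16.4% of all genes were higher. The other differences, spleen minus lung, ran from 0.13 for GATA1 (95% interval -0.34 to 0.60) to 1.20 for SLC4A1 (0.06 to 2.34, adjusted p = 0.0755). HBM gave 0.95 with an interval of -0.85 to 2.75, EPB42 0.94 (0.03 to 1.85) and KLF1 0.58 (0.07 to 1.09). With the animal code as a replicate block EPB42 and KLF1 also passed (adjusted p = 0.0320 and 0.0282). Without the BS1 spleen library the GATA1 difference turned to -0.17 (adjusted p = 0.412). Lung was higher than liver for 6 members, against 75.2% of genes, and with median-gene scaling none of those 6 calls remained, against 37.3% of genes; all 6 differences stayed positive. Lung was higher than kidney for 5 members and lower for SLC4A1, against 49.8% and 23.8% of genes. In lung against heart 3 were higher and GYPC lower (74.6% and 10.1% of genes), and in kidney against heart SLC4A1 was higher and GYPC lower (58.6% and 14.5% of genes). Liver was lower than kidney for SLC4A1 (64.1% of genes) and lower than heart for GYPC (33.6% of genes). With median-gene scaling these counts were 5 and 1 for lung against kidney, 1 and 1 for lung against heart, 1 and 4 for kidney against heart, 2 and 1 for liver against kidney, and 0 and 1 for liver against heart. The shares of all genes higher and lower were then 34.1% and 35.2%, 35.2% and 31.2%, 32.7% and 33.1%, 32% and 29.5%, and 35.5% and 33.7%, in the same order.

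Along each gene's own order of organs few neighbours differed. For HBM (spleen, lung, heart, liver, kidney) no neighbouring pair passed, and the largest step was lung over heart, by 1.74 (SE 0.89, adjusted p = 0.0677). For ALAS2 and AHSP, in that same order, the step from lung down to heart passed, at 1.80 (SE 0.69, adjusted p = 0.0160) and 1.85 (SE 0.55, adjusted p = 0.00218), and both calls were lost with median-gene scaling (adjusted p = 0.545 and 0.228). For GYPC heart stood above spleen by 0.98 (SE 0.27, adjusted p = 0.00118), spleen above lung, and lung above kidney by 1.66 (SE 0.27, adjusted p = 7.23e-07), while kidney and liver did not separate (0.22, adjusted p = 0.461), and with median-gene scaling liver was above kidney by 0.75 (adjusted p = 0.0270). For SLC4A1 kidney stood above spleen by 2.45 (SE 0.56, adjusted p = 0.000197), and no other neighbours separated. For GATA1 lung stood above liver by 0.84 (SE 0.23, adjusted p = 0.00104), a call lost with median-gene scaling (adjusted p = 0.0870). For EPB42 and KLF1 no neighbours passed without the animal block, with spleen over lung at an adjusted p of 0.0808 and 0.0545.

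SLC4A1 is known for 2 products, the long red cell form of band 3 and a shorter form of acid-secreting intercalated cells of the kidney collecting duct that starts further downstream. The annotation holds 3 transcripts. ENSSSCT00000035092 (chr12:18957807-18974208) has 20 exons and a coding length of 2775 bases, PB.14190.3 (chr12:18957849-18974210) has 19 exons and 2685 bases, and PB.14190.5 (chr12:18962030-18974210), assembled from long reads, starts 4223 bases downstream and has 18 exons and 2562 bases. In kidney PB.14190.5 made up 99.4% ± 0.83 (SD, n = 8) of SLC4A1, with 17.2 to 30.0 TPM in every library. In spleen it made up 12.2% ± 19.2 (SD, n = 8) and was listed at 0 in 5 of 8 libraries. ENSSSCT00000035092 made up 0.107% ± 0.30 in kidney, where 7 of 8 libraries listed it at 0, and 73.4% ± 34.5 in spleen, with 74.7, 7.27, 0.33 and 16.1 TPM in BS and 0.39, 0.82, 1.99 and 0 TPM in DSE.

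Usage was tested as the share of a transcript against the rest of its gene, as a log2 ratio with 0.5 TPM added to both (limma), and PB.14190.5 was lower in spleen than in kidney by 6.85 (log2 difference -6.85, adjusted p = 3.66e-09) and ENSSSCT00000035092 was higher by 6.93 (adjusted p = 2.96e-09), where 23.7% of all transcripts tested passed in either direction. Both also passed in each of the 7 fits that left out 1 animal other than BS1. Without BS1 the mean spleen level fell under the minimum of 5 TPM and the usage could not be tested. Among the spleen libraries the short transcript was highest in BS1, at 27.2 TPM of 103 TPM, within its kidney range. Heart, liver and lung SLC4A1 levels were under the minimum of the usage test. Markers of kidney intercalated cells summed to 776 to 954 TPM in the 8 kidney libraries and to at most 70.9 TPM elsewhere, and their part in the SLC4A1 level was not tested.

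**Figure D2:**
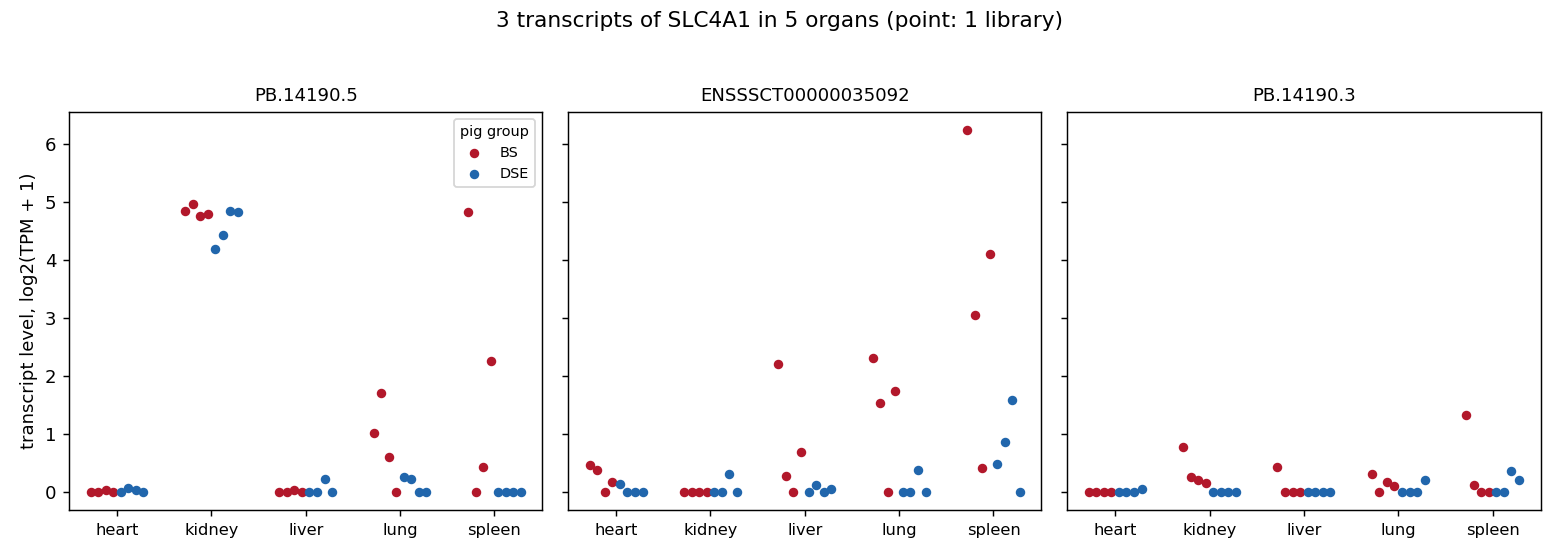
Level of 3 SLC4A1 transcripts as log2(TPM + 1) (vertical axis) in 5 organs (horizontal axis), 1 point per library, BS in red and DSE in blue. PB.14190.5 is at 17.2 to 30.0 TPM in all 8 kidney libraries, where ENSSSCT00000035092 is at or near 0. In spleen ENSSSCT00000035092 is the higher of the pair in BS1, BS2 and BS4 and, at low levels, in DSE1, DSE2 and DSE3.

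The full-length reads of SLC4A1 differed between kidney and spleen in which transcripts they held, as a description of single libraries. PB.14190.5 had 29 reads in BS kidney and 3 in DSE kidney and none in the other 8 libraries. BS spleen held 15 reads of PB.14190.2, a long-read transcript of the same locus that is not in the annotation used, and 1 of PB.14190.3, and none of PB.14190.5. These 16 reads were together 134 per 1000000 (exact 95% binomial interval 76.5 to 217). DSE spleen held 0 of 144216 reads, with an exact upper limit of 25.6 per 1000000 from the same kind of interval. Intervals and limits of this kind cover counting error only. ALAS2 had 69 reads in BS spleen, 577 per 1000000 (449 to 730), and 6 in DSE spleen, 41.6 per 1000000 (15.3 to 90.6). Of these, 66 and 5 were of PB.20861.1, which is also not in the annotation used. The other ALAS2 counts were 21 in BS and 17 in DSE lung, 13 and 6 in heart, 6 and 2 in kidney, and 6 and 2 in liver. EPB42 had 10 reads in BS spleen, 83.6 per 1000000 (40.1 to 154), and 0 in DSE spleen. Of the 10 reads, 9 were of PB.916.1, likewise not in the annotation used. HBM, GYPC, AHSP, KLF1 and GATA1 have no long-read transcript in the annotation, so no full-length reads were assigned to them here.

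Usage of other member transcripts shifted little. HBM is made of 2 Ensembl transcripts, of which ENSSSCT00000008740 (3 exons, coding length 426 bases) averaged 94.7% to 98.2% in every organ, and ALAS2 was mainly ENSSSCT00000013502, at 88.1% to 97.7%. Of 12 transcript calls between organs 3 were of SLC4A1 and 9 of HBM and ALAS2. They fell in spleen against kidney, lung against kidney, lung against liver and spleen against liver, where 23.7%, 18.7%, 22.6% and 27.3% of all transcripts tested passed. HBM ENSSSCT00000008740 was called higher in lung and in spleen than in liver (log2 differences 1.32 and 1.29). Its mean usage was lower there, at 97.5% and 97.1% against 98.2% in liver. With the rest of the gene near 0, the added TPM ties this ratio to the level of the gene. Such calls do not separate usage from level. With 0.1 TPM in place of 0.5 TPM added, 1 of the 9 calls of HBM and ALAS2 remained, ALAS2 PB.20861.3, lower in spleen than in kidney (log2 difference -3.35, adjusted p = 0.0138). With the animal code as a replicate block 21 transcript calls were made in place of 12, among 28.2% of all transcript tests in place of 24.7%. PB.20861.3 averaged 7.25% of ALAS2 in kidney, with a median of 0% and 57.4% in 1 kidney library. It had no full-length read in any long-read library. Its spleen against kidney usage could be tested in 7 of the 8 fits that left out 1 animal. EPB42 usage was not tested because its level was under the minimum of 5 TPM in all organs but spleen.

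BS and DSE pigs were compared within each organ, on genes averaging 1 TPM or more in either group. Of 40 possible tests of a member in an organ, 29 passed this filter and 10 passed the adjusted p of 0.05, all with BS higher. HBM and GYPC made up 8 of the 10. Lung held 4 calls among 7 members tested, where 14.3% of all genes were higher in BS. Heart held 2 of 4 (23.3% of genes), kidney 2 of 5 (19.2%), liver 1 of 5 (17.5%) and spleen 1 of 8 (10.8%). A member that enters only through 1 group had to differ. This holds through BS for SLC4A1 in lung, liver and spleen, EPB42 in lung, KLF1 and GATA1 in spleen and AHSP in kidney, and through DSE for GATA1 in lung, so these counts describe the tests made and not the 8 genes. With median-gene scaling 13 tests passed, 6 of them in lung and 2 in spleen, where the shares of all genes higher were 23.7% and 17.7%. In 1 fit over all organs, which shares 1 estimate of the spread, 14 tests passed: HBM in heart and EPB42 in lung were lost, and SLC4A1, EPB42, GATA1, KLF1, ALAS2 and GYPC in spleen were gained (adjusted p = 0.000629, 0.000953, 0.00143, 0.00797, 0.0270 and 0.0370). That fit called 41.6% of all tests over genes and organs in either direction, against 33.3% in the fits per organ. It has no term for the animal. In the fits per organ the SE of SLC4A1 was 1.03 in spleen and 0.16 in kidney, so 1 shared spread can understate that of spleen.

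On log2(TPM + 1) HBM had the highest differences in each organ where members were tested. BS minus DSE was 3.23 in lung (log2, SE 0.37, adjusted p = 0.00176), 3.78 in spleen (SE 1.16, adjusted p = 0.0391), 2.14 in kidney (SE 0.65, adjusted p = 0.0337) and 1.55 in heart (SE 0.50, adjusted p = 0.0362). Liver gave 1.97 (SE 0.82, adjusted p = 0.104). The lung means were 129 ± 59.8 TPM in BS and 12.6 ± 6.25 TPM in DSE (SD, n = 4 each). The spleen call rests on single libraries: without BS1 spleen the difference was 2.96 and the adjusted p 0.0869, and 7 of the 8 fits that left out 1 animal lost it. The lung call passed in all 8 such fits (adjusted p 0.0012 to 0.0084), while heart and kidney each lost it in 6 of 8. The overlapping gene NPRL3 was itself higher in every BS library than in every DSE library of the same organ, at 11.6 to 15.6 TPM against 7.56 to 9.17 TPM in lung and 20.5 to 25.2 TPM against 11.3 to 13.4 TPM in kidney, and its part in the HBM difference was not tested. Lung HBM in BS was above the highest NPRL3 level of any library in all 4 animals. Kidney HBM was below the NPRL3 level of the same library in every animal of both groups.

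HBM was also set against beta globin. HBB, the adult beta chain, had medians of 20610 TPM in BS spleen and 2366 TPM in DSE spleen. Its BS minus DSE difference did not pass in any organ as deposited, at 1.46 in lung (SE 0.56, adjusted p = 0.0625) and 2.26 in spleen (SE 1.08, adjusted p = 0.139), and with median-gene scaling it passed in lung (1.72, adjusted p = 0.0226). HBM per 100 TPM of HBB was 1.57 to 3.73 in BS lung and 0.56 to 0.87 in DSE lung, 1.59 to 5.69 in BS spleen and 0.71 to 1.22 in DSE spleen, and 1.87 to 3.77 in BS heart and 0.81 to 1.27 in DSE heart. The groups did not overlap in these 3 organs, and they overlapped in kidney and liver. Against the unnamed neighbour ENSSSCG00000007978, whose level rose to 24544 TPM in BS1 spleen, HBM per 100 TPM was 2.66 to 6.04 in BS lung and 1.08 to 1.75 in DSE lung. These ratios were chosen after the values were seen and were not tested.

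GYPC showed the smaller and steadier difference. BS minus DSE was 0.74 in heart (SE 0.11, adjusted p = 0.00134), 1.03 in lung (SE 0.20, adjusted p = 0.00653), 1.07 in kidney (SE 0.31, adjusted p = 0.0306) and 0.63 in liver (SE 0.18, adjusted p = 0.0323). Spleen gave 0.64 (SE 0.23, adjusted p = 0.0638), with 118 to 149 TPM in BS and 53.9 to 118 TPM in DSE. Every BS library lay above every DSE library in heart, liver and lung, where 23.1%, 19.2% and 14.2% of all genes did so. The heart and lung calls passed without any 1 animal, and the kidney and liver calls were lost in 6 and 4 of the 8 such fits.

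**Figure D3:**
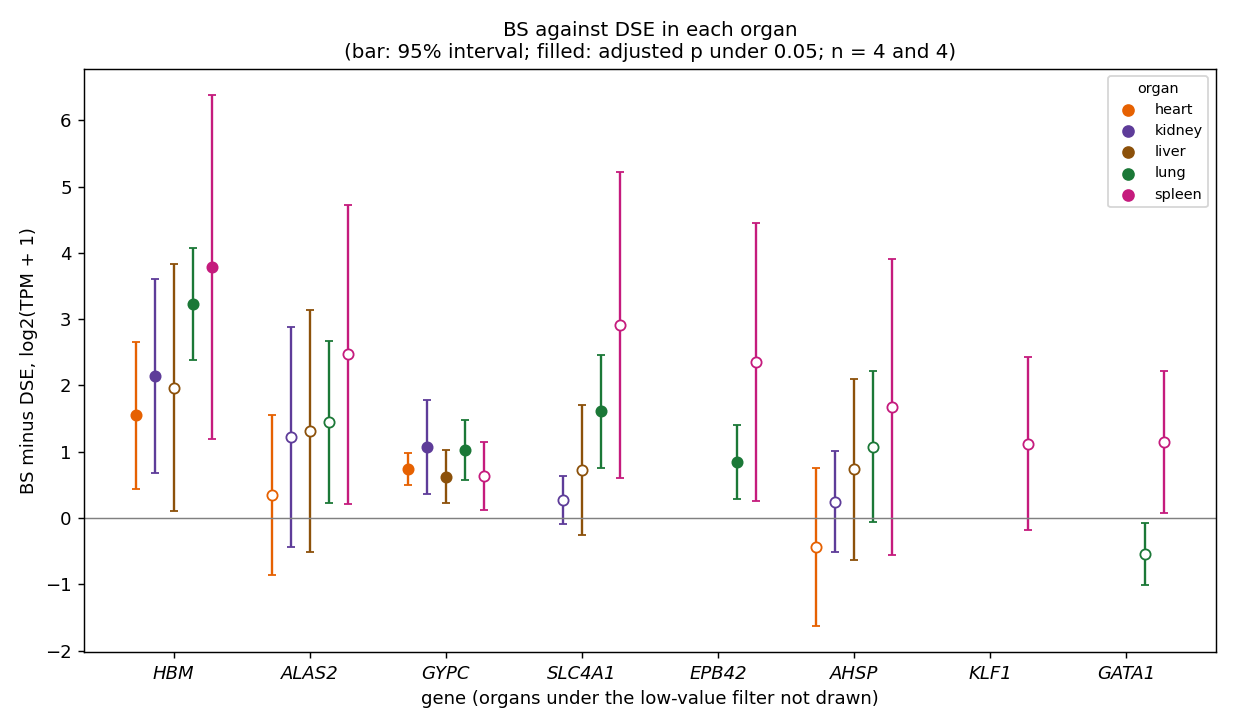
Difference BS minus DSE in log2(TPM + 1) (vertical axis) for each erythroid gene (horizontal axis) and organ (colour), with the 95% interval of the limma fit as a bar and filled points for an adjusted p under 0.05. HBM in lung (3.23) has an interval far from 0, the GYPC differences lie between 0.63 and 1.07 with short intervals, the spleen intervals are the widest for most genes, and GATA1 in lung lies below 0.

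Of the remaining members, SLC4A1 and EPB42 passed in lung in the fits per organ. Both entered that test only through the BS group, since DSE averaged under 1 TPM, so a difference was built in and the values below are a description. SLC4A1 lung stood at 5.25, 4.12, 0.64 and 2.41 TPM in BS and at 0.19, 0.16, 0.30 and 0.16 TPM in DSE, without overlap (14.2% of all genes), a difference of 1.61 (SE 0.38, adjusted p = 0.0118). EPB42 lung stood at 2.95, 2.96, 1.16 and 3.05 TPM in BS and at 0.65, 0.81, 1.35 and 0.88 TPM in DSE, with BS3 below DSE3, a difference of 0.84 (SE 0.25, adjusted p = 0.0250) that 5 of 8 fits without 1 animal lost. ALAS2 gave 1.45 in lung (SE 0.54, adjusted p = 0.0585) and 2.47 in spleen (95% interval 0.22 to 4.73, adjusted p = 0.0915). AHSP gave 1.08 in lung (SE 0.51, adjusted p = 0.114) and -0.44 in heart (95% interval -1.62 to 0.75). ALAS2 and AHSP in lung passed with median-gene scaling (adjusted p = 0.0205 and 0.0472). KLF1 was tested in spleen alone, where it too entered through BS only, at 1.12 (95% interval -0.18 to 2.42). Without BS1 it fell under the filter there. On the ratio of mean TPM, SLC4A1 was 15.4 times higher in BS lung and 36.2 times in BS spleen, beside 10.2 and 23.1 times for HBM. The spleen ratios lean on BS1, at 103 TPM of SLC4A1 and 1535 TPM of HBM, with BS4 next at 19.9 and 707 TPM. Spleen ratios without BS1 were not taken, so SLC4A1 and HBM are not ordered there.

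Markers of another blood cell type moved in the same direction in lung. The 6 measured neutrophil markers summed to 961 to 3469 TPM in BS lung and 672 to 1083 TPM in DSE lung, and to 55.8 to 875 TPM in BS spleen and 19.4 to 61.6 TPM in DSE spleen. In lung 3 of 4 tested were higher and none lower, against 14.3% and 26.7% of all genes. S100A8, a calcium-binding protein of neutrophils, had the fifth highest likeness to HBM. Platelet and megakaryocyte markers, which share GATA1 with the red cell lineage, summed to 19.2 to 46.3 TPM in BS lung and 20.9 to 35.8 TPM in DSE lung. Their part in the erythroid differences was not tested.

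On each animal's mean over the 5 organs 4 of the 8 members were higher in BS, where 25.5% of all genes were higher and 30.6% lower. The differences were 2.53 for HBM (SE 0.60, adjusted p = 0.00536), 0.82 for GYPC (SE 0.11, adjusted p = 0.00021), 1.14 for SLC4A1 (SE 0.36, adjusted p = 0.0215) and 0.79 for EPB42 (SE 0.28, adjusted p = 0.0360). ALAS2 gave 1.36 (SE 0.54, adjusted p = 0.0538), AHSP 0.66 (SE 0.43, adjusted p = 0.215), KLF1 0.34 (SE 0.16, adjusted p = 0.0955) and GATA1 0.20 (SE 0.14, adjusted p = 0.234). The median of the members was 0.81, beside -0.05 over all genes. Without BS3, 7 members passed, among 55.2% of all genes in either direction, and without DSE1, 2 passed, among 50.8%. Without BS1, KLF1 averaged under 1 TPM in every organ and was not tested. The EPB42 call was lost in 6 of the 8 fits without 1 animal, and the HBM and GYPC calls in none.

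Whether the difference varied between organs was tested by an interaction of pig group and organ. It passed for GATA1 (F = 6.39, adjusted p = 0.0182) and SLC4A1 (F = 5.17, adjusted p = 0.0379), where 9.93% of all genes passed. GATA1, BS minus DSE, was -0.54 in lung (SE 0.21, adjusted p = 0.0612) and 1.15 in spleen (SE 0.48, adjusted p = 0.0980). SLC4A1 was 0.28 in kidney (95% interval -0.08 to 0.64) and 2.91 in spleen (SE 1.03, adjusted p = 0.0604). The SLC4A1 interaction was lost with a pseudocount of 0.1 TPM, without the low-value filter and with median-gene scaling (adjusted p = 0.0534, 0.0676 and 0.0650). It was also lost in 7 of the 8 fits without 1 animal, among them the fit without BS1 (adjusted p = 0.0844). The GATA1 interaction was lost in 4 of those 8 fits. No member passed without BS4, DSE1, DSE3 or DSE4. Mast cells, basophils and eosinophils also use GATA1. Their 6 measured markers summed to 16.5 to 28.2 TPM in BS lung and 42.1 to 72.0 TPM in DSE lung, the direction of lung GATA1. FCER1A and MS4A2, subunits of the high-affinity IgE receptor, were at 10.2 ± 3.67 and 6.99 ± 1.05 TPM in BS lung and at 29.7 ± 7.73 and 18.8 ± 4.04 TPM in DSE lung (SD, n = 4). Their part in the GATA1 level was not tested.

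Within spleen the members rose and fell together from animal to animal, GYPC excepted. BS1, BS4 and BS2 held the 3 highest levels, in that order, of HBM, ALAS2, SLC4A1, EPB42, AHSP, KLF1 and GATA1, and BS3 and the DSE animals lay below. GYPC stood at 132, 118, 149 and 130 TPM in BS and at 109, 118, 73.1 and 53.9 TPM in DSE, with BS3 the highest. The lead of BS1 over the next library was not the same for all genes. It was 5.20-fold for SLC4A1, 5.19-fold for KLF1 and 4.86-fold for EPB42, 2.80-fold for GATA1 and 2.17-fold for HBM, and 1.33-fold for AHSP and 1.06-fold for ALAS2. HBB was level in BS1 and BS4, at 26966 and 26968 TPM.

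**Figure D4:**
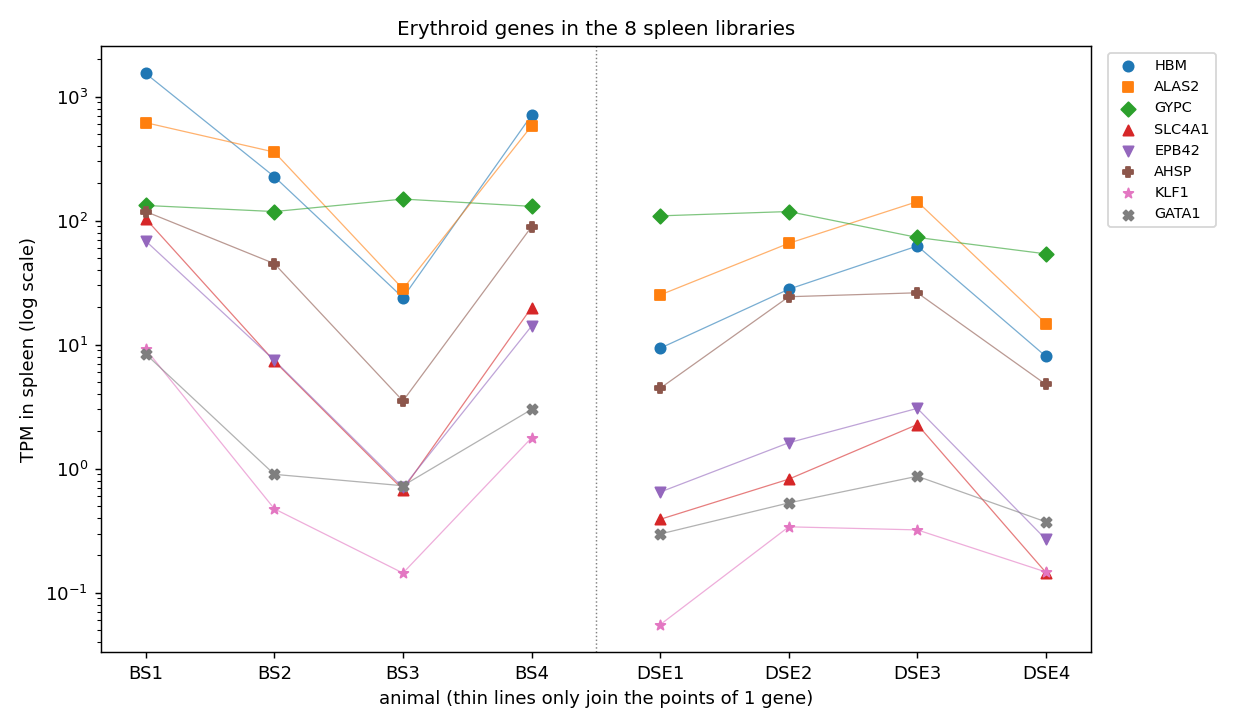
Level of each erythroid gene in the 8 spleen libraries in TPM on a log axis (vertical), by animal (horizontal), with BS to the left and DSE to the right of the dotted line. All genes but GYPC are highest in BS1 and low in BS3, and the gap between BS1 and BS4 is about 5-fold for SLC4A1, KLF1 and EPB42 and 1.06-fold for ALAS2.

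The BS1 spleen library was also the highest for other red cell membrane genes. Of 16 measured genes of the red cell membrane and cytoskeleton, 13 were highest in BS1 and 9 were over 2 times the next spleen library, against 7.87% and 0.670% of all genes averaging 1 TPM or more in spleen. RHAG, the Rh-associated glycoprotein, stood at 39.4 TPM in BS1 and at most 5.01 TPM in the other 7 spleens, and ANK1 (ankyrin of the red cell) at 5.63 and at most 1.49 TPM. Of 13 late red cell genes 11 were highest in BS1, among them CA1 (carbonic anhydrase of red cells) at 69.3 TPM against at most 28.4 TPM. Of 12 erythroid transcription factor genes 5 were highest there, among them NFE2 at 34.5 against at most 11.2 TPM. None of 7 dividing cell markers and none of 5 B cell markers was highest in BS1. Of 6 neutrophil markers 4 were highest in BS1, from CSF3R at 1.19-fold to MMP9 at 14.5-fold above the next spleen library, while MPO and ELANE were higher in BS4. In liver BS1 was also highest for HBM and SLC4A1, at 55.0 and 3.93 TPM, with BS4 next at 31.5 and 0.62 TPM. AHSP was near level in BS1 and BS4 liver, at 6.09 and 5.86 TPM, and ALAS2 was highest in BS4. The share of all genes highest in BS1 liver was not taken.

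HBM and ALAS2, a globin and a heme enzyme, varied together over the 8 animals of an organ. On log2(TPM + 1) Pearson's r was 0.967 in spleen (exact 2-sided permutation p = 4.96e-05), 0.852 in liver (exact p = 0.00665), 0.811 in kidney (exact p = 0.00997) and 0.790 in heart (exact p = 0.0205), with Benjamini-Hochberg adjusted values of 0.000198, 0.0133, 0.0133 and 0.0205 over the 4 relations. Spearman's rho was 1, 0.857, 0.786 and 0.810 in the same order (exact permutation p = 4.96e-05, 0.0107, 0.0279 and 0.0218). Without the 2 animals farthest from the median HBM level, r was 0.970, 0.879, 0.846 and 0.686. In lung the BS and DSE levels of HBM fall into separate clusters of 4, so no r was taken there. Groups of 4 are too small for an r within BS or DSE, so the relation and the pig group cannot be told apart.

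**Figure D5:**
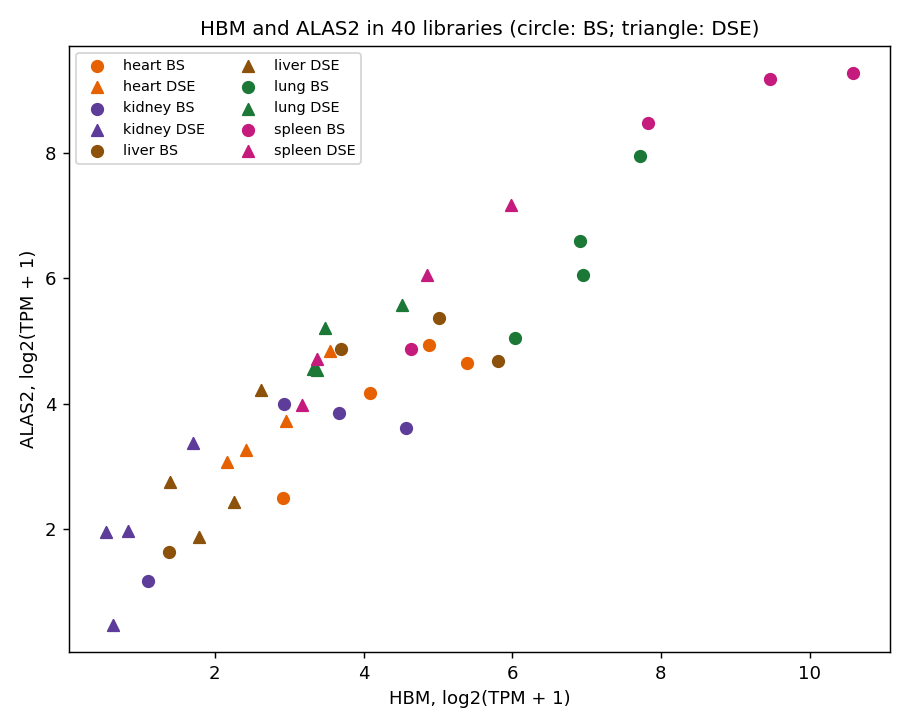
ALAS2 (vertical axis) against HBM (horizontal axis), both as log2(TPM + 1), in 40 libraries, coloured by organ, with circles for BS and triangles for DSE. Points of 1 organ rise together (r from 0.790 in heart to 0.967 in spleen), and in lung the BS circles stand apart to the right of the DSE triangles.

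Over all 40 libraries, with the organ mean taken off, the genes most like HBM among 13404 genes with a symbol were ALAS2 (r = 0.885), CA1 (0.862), TMCC2 (0.857), HBB (0.854), S100A8 (0.851), SNCG (0.844), DMTN (0.843) and SNX22 (0.830). The median over all genes was -0.0865. Of the other members SLC4A1 ranked 10 (0.823), AHSP 12 (0.812) and EPB42 15 (0.805), while KLF1 ranked 638 (0.661), GYPC 647 (0.660) and GATA1 1803 (0.533). These values describe libraries that share animals and organs and have no p-value.

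The wider red cell pathway was read through 7 lists with 80 genes, of which 68 were found. Between BS and DSE 11 of 47 tested passed as higher and 0 as lower in heart, 11 and 1 of 46 in kidney, 6 and 1 of 42 in liver, 16 and 8 of 52 in lung and 8 and 1 of 62 in spleen. The shares of all genes that were higher, in the same order of organs, were 23.3%, 19.2%, 17.5%, 14.3% and 10.8%. With median-gene scaling the lung count was 20 higher and 4 lower of 50, against 23.7% of all genes higher. On the mean over organs 24 of 62 were higher and 8 lower, against 25.5% and 30.6% of all genes. In spleen against liver 44 were higher and 12 lower of 62, and with median-gene scaling 25 were higher and 18 lower of 61, with 9 calls of the other sign, against 66.7% and 36.1% of all genes higher.

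Among the 8 heme synthesis genes, the mean over organs gave 4 higher and 1 lower in BS, against 25.5% and 30.6% of all genes, with a list median of 0.34. UROD, uroporphyrinogen decarboxylase, was higher in BS in 4 organs, in heart by 0.58 (SE 0.12, adjusted p = 0.00644). ALAS1, the housekeeping counterpart of ALAS2, was highest in liver and passed in lung alone (0.36, adjusted p = 0.0324), at 70.9 ± 8.88 against 54.7 ± 3.03 TPM (SD, n = 4). Of the 12 transcription factor genes 5 were higher in BS over organs and none lower, against 25.5% and 30.6% of all genes. ZFPM1 (FOG1, the partner of GATA1) passed in all 5 organs, from 0.62 in heart to 1.17 in kidney; in heart it was tested only because of its BS level, as LYL1 was in kidney. LYL1, a basic helix-loop-helix factor, passed in each of the 4 where it was tested, with 24.1 ± 4.76 TPM in BS spleen and 10.5 ± 2.16 TPM in DSE spleen, and LDB1 passed in 4. LMO2, the LIM-domain bridge of that complex and the most abundant of the list, passed in none.

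Of the 16 membrane and cytoskeleton genes 4 were higher and 2 lower over organs, against 25.5% and 30.6% of all genes. DMTN (dematin) was higher in BS kidney by 0.85 (SE 0.17, adjusted p = 0.00806) and in lung, whereas EPB41 (protein 4.1) and EPB41L4B were lower in BS lung, by -0.55 and -0.88 (adjusted p = 0.0423 and 0.00408), and with median-gene scaling EPB41 no longer passed (-0.29, adjusted p = 0.130). AQP1, the water channel, passed in no organ. Of the 4 hemoglobin genes HBE1, the embryonic epsilon chain, was higher in BS spleen by 1.64 (SE 0.36, adjusted p = 0.0136), at 2.97 ± 2.22 TPM against 0.137 ± 0.118 TPM (SD, n = 4), a gene tested only because of its BS level, and HBQ1 was higher in BS kidney by 0.76 (adjusted p = 0.0252). Of the 6 iron uptake genes GLRX5, a mitochondrial glutaredoxin, was higher in BS in 3 organs, TFR2 was higher in BS liver (0.71, adjusted p = 0.00666), TFRC was lower in BS kidney (-0.65, adjusted p = 0.0413) and SLC11A2 lower in BS lung (-0.84, adjusted p = 0.0175).

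Of the 9 erythropoietin signalling genes CISH and SOCS3, feedback inhibitors of cytokine signalling, were higher in BS lung by 1.25 (adjusted p = 0.00913) and 1.54 (adjusted p = 0.0103), and JAK2, the kinase of the receptor, was lower in BS lung and spleen by -0.80 and -0.58 (adjusted p = 0.0150 and 0.0229). ERFE, erythroferrone, a hormone of erythroblasts, was higher in BS spleen by 0.95 (SE 0.18, adjusted p = 0.0100), at 1.53 ± 0.445 against 0.295 ± 0.134 TPM (SD, n = 4), and it too was tested only because of its BS level. Of the 13 late red cell genes 5 were higher and 2 lower over organs, against 25.5% and 30.6% of all genes, with a list median of -0.04. UBE2O, a ubiquitin enzyme of reticulocyte remodelling, passed as higher in BS in all 5 organs, by 1.23 in spleen and 0.38 in lung. BLVRB (biliverdin reductase B) passed in 3, PRDX2 (peroxiredoxin 2) in 2 and CAT (catalase) in none.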

How the data were processed

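Short-read and long-read RNA libraries of 5 pig organs were used through the authors' deposited gene and transcript tables. The deposited values are TPM per gene and per transcript and full-length read counts per transcript, and each TPM column sums to 1000000. Per the submitters' processing notes the tools included STAR 2.7.10a and Salmon 1.10.1 with the build susScr11; per the file headers the annotation was written with rtracklayer 1.58.0. The short-read depth is unknown, because TPM keeps none. The gene and transcript TPM files each held 20 columns, and the full-length file 5, that matched no label; none was used.

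Members were matched by symbol. The members and lists were chosen with earlier results of these data known. Tests used limma 3.58.1 (R 4.3.3) with a mean-variance trend on log2(TPM + 1), over genes averaging 1 TPM or more in a compared group, with Benjamini-Hochberg adjustment over all genes and a threshold of 0.05. Fold changes on this scale understate the change of low genes. Organs were compared in 1 fit of 40 libraries, BS and DSE within each organ (4 against 4), over organs on each animal's mean, and by an interaction. Transcript usage was tested as log2(transcript / rest of the gene), with 0.5 TPM added and a gene minimum of 5 TPM. Full-length counts have 1 library a group and organ, so they were not tested. The labels number the samples of a group but do not describe how they were drawn, so p-values measure only the spread between these samples, which may be technical in part. The steps were tested on simulated data. Named pathway genes were the 2 of each list with the highest mean TPM and up to 2 others that passed between BS and DSE in the most organs (some named genes are not reported here), and genes like HBM were the 8 with the highest organ-centred r. Alternatives were a pseudocount of 0.1 TPM, no filter, median-ratio scaling, no mitochondrial genes, a joint fit, replicate blocks, each animal left out, and, added after seeing the data, the BS1 spleen library left out. Python 3.11.15 with scipy 1.17.1 gave the exact permutation tests. No sequences are printed, since the reference tables used here hold gene names and positions only.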

Additional observations from a re-analysis of the deposited data

Results flagged for a closer look

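In 7 of 80 groups of 4 libraries the highest or lowest library lay farther from its nearest neighbour than Dixon's 95% critical value of 0.829 allows, where chance gives about 1 in 20. HBM in DSE3 lung stood at 21.956 TPM, with the next DSE lung at 10.2 TPM. ALAS2 in BS3 kidney stood at 1.24836 TPM, below 11.2 TPM in the next BS kidney, and EPB42 in BS3 lung at 1.16154 TPM, below 2.95 TPM. KLF1 in BS1 liver stood at 0.658361 TPM, with the next BS liver at 0.0271 TPM. KLF1 was also above 0 in a single library of its group in BS1 kidney (0.029959 TPM), DSE2 kidney (0.048591 TPM) and DSE3 liver (0.036389 TPM), the others being listed at 0. These 3 values are too low to read.

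The BS minus DSE difference varied between organs for SLC4A1 (limma interaction, adjusted p = 0.0379) and GATA1 (adjusted p = 0.0182). With 1 animal left out, the SLC4A1 call was lost in 7 of 8 fits and the GATA1 call in 4. SLC4A1 differed by 0.28 (log2) in kidney and 2.91 in spleen, and GATA1 by -0.54 in lung and 1.15 in spleen.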

How the results depend on the processing

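Of the values of single members under the alternatives, 878 kept direction and side of the threshold, 92 lost the call, 32 gained it and 3 changed sign. The 10 calls between BS and DSE within organs became 5 without the filter on low values, 5 with a replicate block on the number, and 4 to 17 with 1 animal left out, the lowest without BS1 and the highest without BS3. The 4 calls over organs became 2 without the filter and 2 to 7 with 1 animal left out. Among all genes 56.1% passed as reported, 30.2% without the filter and 49.2% to 57.2% with 1 animal left out. The 2 interaction calls became 1 with a pseudocount of 0.1 TPM, 1 without the filter, 1 with median-ratio scaling, and 0 to 4 with 1 animal left out. The share of all genes went from 9.93% to 4.64%, 6.35%, 7.8% and 4.48% to 12.2% in the same order. The 12 transcript usage calls became 4 with a pseudocount of 0.1 TPM, 21 with a replicate block on the animal code, and 6 to 15 with 1 animal left out. The share of all transcript tests went from 24.7% to 21.3%, 28.2% and 21.7% to 23.1% in the same order. The 45 organ calls ranged from 41 with median-ratio scaling to 54 with a replicate block on the animal code. Of all tests over genes and pairs 73.5% passed as reported, and 66.5% and 78.1% under those 2 alternatives. The cause of these changes was not tested.

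GATA1, spleen minus lung, ran from -0.19 (without BS1) to 0.28 with 1 animal left out and was -0.17 without the BS1 spleen library, an alternative chosen after seeing the data. AHSP, BS minus DSE in kidney, ran from -0.00227 (without DSE1) to 0.51. With the replicate block the calls of HBM in kidney (adjusted p = 0.0710) and spleen (0.0839), GYPC in kidney (0.0655) and liver (0.0551), and EPB42 in lung (0.0774) and over organs (0.0521) were lost. The pairing is not in the labels: deviations of libraries with the same number in BS and DSE correlated at -0.24 to 0.0767, over 0.1 in 0 of 20 pairs, and those of the same animal code in 2 organs at -0.11 to 0.45, over 0.1 in 47 of 80 pairs. These correlations cannot show whether BS and DSE samples of the same number share more than that number. Those of the same animal code had a median of only 0.117. The animal code is read as 1 animal without a label that says so, and its correlations are mixed.

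Depth limits the low genes: KLF1 and GATA1 outside spleen and lung, and full-length counts of 1 to 3 reads, cannot be ranked.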
